A study of Homo sapiens with 6 samples.

Results

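The genes described here cut, join and trim transfer RNA (tRNA) in human cells. They are 8 of the 63086 genes in the count table: TSEN15, TSEN34 and TSEN54 (subunits of the tRNA splicing endonuclease), CLP1 (an RNA kinase), RTCB (the tRNA ligase), ELAC2 (the 3′ end nuclease), ANG (angiogenin, a ribonuclease that cuts tRNA) and RNH1 (its inhibitor). They were chosen by function, from a list of gene symbols matched to Ensembl identifiers, and all 8 had enough counts to be tested. The cells were HEK293T, an established human embryonic kidney line that carries the SV40 large T antigen. The supplemented group (100Q, 3 libraries) consisted of depleted cells to which queuine had been added back, and the depleted group (0Q, 3 libraries) had no added queuine; both were kept in medium with dialyzed serum. The labels disagree on the dose, with 100 nM in the sample characteristics and 1 µM for 24 hours in the treatment protocol. Each group was grown in triplicate, but the labels do not say whether in separate cultures. A p-value here therefore measures spread among libraries that may be technical.

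Queuine is a base that mammalian cells take up from diet and gut bacteria and insert, as queuosine, at the first anticodon position of tRNAs for aspartate, asparagine, histidine and tyrosine. A newly made tRNA is trimmed by RNase P at its 5′ end and by RNase Z, the product of ELAC2, at its 3′ end. Some human tRNAs, among them those for tyrosine, also carry an intron beside the anticodon, which the TSEN endonuclease removes before RTCB joins the ends. Angiogenin, a secreted and nuclear ribonuclease of the RNase A family, cuts mature tRNA in the anticodon loop during stress and is held inactive by RNH1. Queuosine has been reported to protect its tRNAs against this cut. The comparison asked whether the transcripts of these enzymes differ between supplemented and depleted cells; tRNA itself was not analysed here.

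Tyrosine tRNA genes are shown first because they are the substrates of the splicing enzymes that also receive queuosine. RefSeq (GRCh38.p14) lists 12 of them with the GTA anticodon, 89 to 94 bases long, against 72 bases for the 9 histidine and 13 aspartate genes and 74 to 75 for the 22 asparagine genes. In the following sequences, read from hg38, capitals mark the intron, taken as the bases between the base after the anticodon and the last 36 bases of the gene. The 3 tyrosine genes are TRY-GTA5-5 (chr14:20683273-20683361, plus strand), TRY-GTA5-3 (chr14:20653099-20653192, minus strand) and TRY-GTA1-1 (chr6:26568858-26568948, plus strand). The aspartate gene TRD-GTC2-1 (chr1:161440825-161440896, minus strand) has no intron and is given for contrast.
TRY-GTA5-5: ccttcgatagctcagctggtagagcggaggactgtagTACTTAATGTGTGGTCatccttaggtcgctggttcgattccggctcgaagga
TRY-GTA5-3: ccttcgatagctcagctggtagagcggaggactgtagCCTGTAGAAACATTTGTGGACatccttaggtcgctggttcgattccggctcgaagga
TRY-GTA1-1: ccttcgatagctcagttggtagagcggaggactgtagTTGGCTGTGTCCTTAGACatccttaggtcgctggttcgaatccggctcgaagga
TRD-GTC2-1: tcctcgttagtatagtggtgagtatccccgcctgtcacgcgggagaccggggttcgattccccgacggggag
The introns are 16, 21 and 18 bases long in TRY-GTA5-5, TRY-GTA5-3 and TRY-GTA1-1. The tRNA parts around the intron are the same letters in TRY-GTA5-5 and TRY-GTA5-3, whereas the introns differ.

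ANG itself lies in a tRNA cluster. Its annotated 5′ end (chromosome 14, position 20684177, plus strand) is 816 bases downstream of TRY-GTA5-5, and all 5 tyrosine GTA genes of chromosome 14 lie within the 31078 bases before it. A proline tRNA gene, TRP-TGG3-2 (chr14:20684016-20684087), ends 90 bases before ANG. Of 20046 protein-coding genes, 45 (0.224%) have a RefSeq tRNA gene within 1000 bases of their 5′ end; of the 8 genes here it is ANG alone. RefSeq gives 3 start windows for ANG, each from 250 bases before to 50 bases after a start. The first (chr14:20683927-20684226) holds the proline tRNA gene, in capitals, and the second (chr14:20684310-20684609) is letter for letter a start window of the neighbouring ribonuclease gene RNASE4, as is the third (chr14:20688514-20688813). These starts bear on the counts of ANG given later.
ANG start window 1: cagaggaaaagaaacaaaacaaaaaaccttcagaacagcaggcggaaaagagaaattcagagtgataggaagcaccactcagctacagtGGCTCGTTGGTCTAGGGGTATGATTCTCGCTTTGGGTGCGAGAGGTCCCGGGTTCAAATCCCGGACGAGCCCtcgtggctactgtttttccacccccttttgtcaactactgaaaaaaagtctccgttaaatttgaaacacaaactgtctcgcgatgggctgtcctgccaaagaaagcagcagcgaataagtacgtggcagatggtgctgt
ANG start window 2: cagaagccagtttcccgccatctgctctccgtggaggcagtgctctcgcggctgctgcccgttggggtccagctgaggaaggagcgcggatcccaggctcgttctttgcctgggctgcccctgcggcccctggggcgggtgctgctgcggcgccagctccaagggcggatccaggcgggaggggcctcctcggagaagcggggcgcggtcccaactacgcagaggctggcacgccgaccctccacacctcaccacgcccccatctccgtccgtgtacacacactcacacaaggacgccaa
The B box of tRNA promoters, searched on both strands as GGTTCNANTCC, is in the first window and in 104 of 35116 RefSeq start windows of the same length (0.296%). It is in 1 of the 11 start windows that RefSeq gives for 6 of the 8 genes; TSEN15 and TSEN54 have no entry in that table.

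Libraries held 4023956 to 11398835 estimated counts in 100Q and 7264638 to 8035251 in 0Q. Levels are given as CPM, counts rounded to integers and scaled to the effective library size (the library total after TMM scaling between libraries). Log2 fold changes are 100Q minus 0Q. Of 14905 genes tested, 2 (0.0134%) passed at a Benjamini-Hochberg adjusted p under 0.05 (edgeR quasi-likelihood test) and 704 (4.72%) had an unadjusted p under 0.05. The 4 HEK293T markers used (NEFL, NEFM, PAX2 and EYA1) had counts in every library, with summed levels of 249 to 303.1 CPM in 100Q, against 303.1 to 333 CPM in 0Q; the part of this difference in the results was not tested. The blood markers PTPRC and CD3E were at 0 counts in every library, which allows up to 0.753 CPM each in the shallowest library. Of the fibroblast markers DCN had 1 count in 1 library, while COL1A1 and COL3A1 were detected, and the 3 summed to 32.0 to 35.7 CPM in 100Q, against 29.4 to 32.5 CPM in 0Q; their part in the results was not tested. The endothelial markers PECAM1 and CDH5 summed to at most 0.257 CPM in 100Q, against at most 0.419 CPM in 0Q.

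None of the 8 genes passed the test between supplemented and depleted cells. The count was 0 of 8 with edgeR, 0 of 8 with DESeq2 and 0 of 8 with limma-voom, where these tools called 0.0134%, 0.059% and 0.00671% of the genes they tested. An unadjusted p under 0.05 (edgeR) was found for 0 of 8, against 4.72% of all genes. Benjamini-Hochberg adjusted p of the 8 genes lay between 0.987 and 0.995 (edgeR). The log2 fold change was positive for 5 of the 8 genes, where it was positive for 49.4% of all tested genes, with a median of 0.03, and over all tested genes the median was -0.0027. The median absolute log2 fold change was 0.078 over the 8 genes, 0.13 over all tested genes and 0.094 over tested genes of at least 10 mean CPM. For the 7 genes other than ANG, the 95% intervals of the fold change lay between 0.629 and 1.27, which holds neither a 2-fold higher nor a 2-fold lower level. In bulk RNA, a smaller share of cells with a transcript and less of it per cell cannot be told apart.

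**Figure D1:**
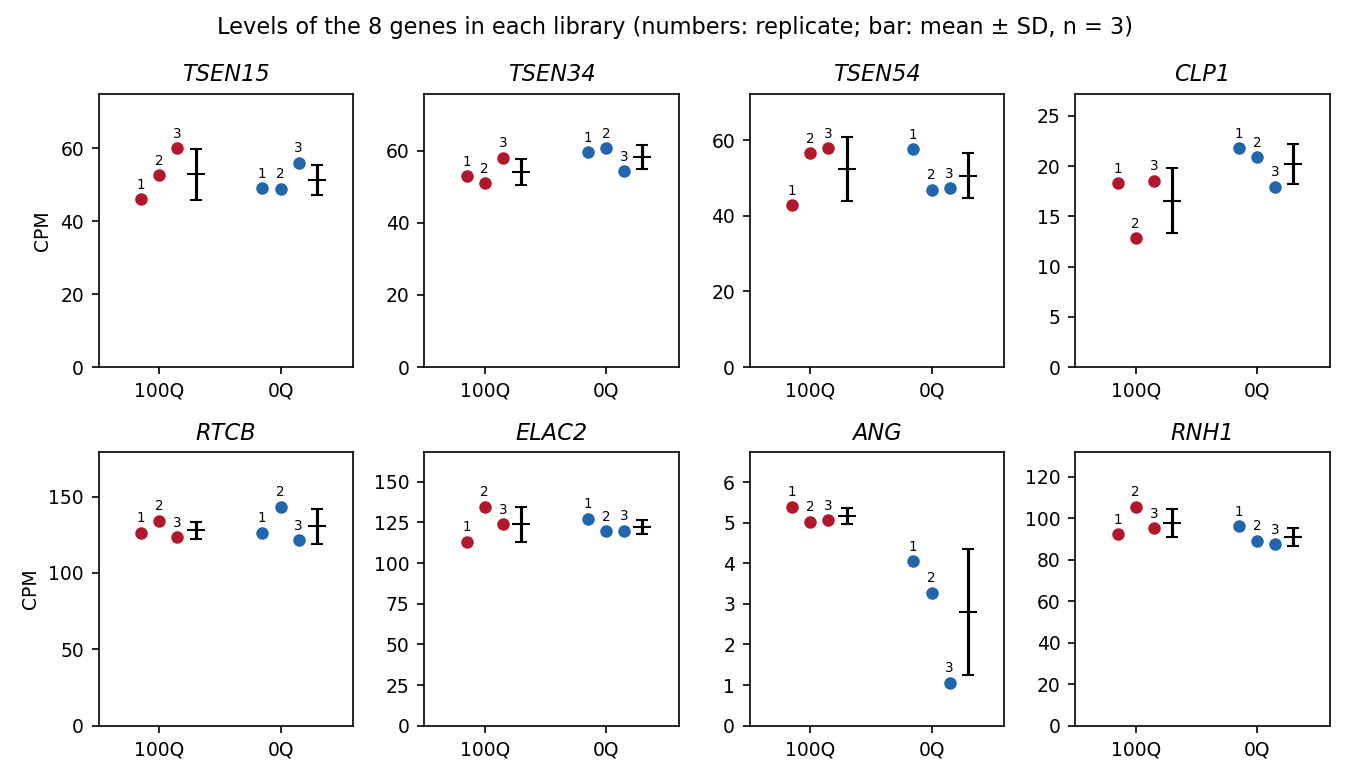
CPM of each of the 8 genes in the 3 libraries of 100Q (red, left) and of 0Q (blue, right); numbers give the replicate and black bars the mean ± SD (n = 3). The groups are intermixed in 7 panels, and in the ANG panel the 100Q libraries (5.02 to 5.39 CPM) lie above the 0Q libraries (1.06 to 4.05 CPM).

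The endonuclease subunits were examined first. In this enzyme TSEN34 is catalytic, while TSEN15 and TSEN54 form the scaffold. TSEN15 (ENSG00000198860; hg38 chromosome 1, 184051651 to 184123978) was at 46.0, 52.7 and 60.1 CPM in 100Q replicates 1 to 3 and at 49.1, 48.9 and 56.1 CPM in 0Q replicates 1 to 3. Replicate 1 of 100Q was the lowest and replicate 3 of 100Q the highest library, so the 0Q values lay inside the range of 100Q. The means were 52.9 ± 7.03 CPM in 100Q, against 51.4 ± 4.10 CPM in 0Q (SD, n = 3 each), with a log2 fold change of 0.05 ± 0.13 (SE).

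TSEN54 (ENSG00000182173; chromosome 17, 75515944 to 75524735) repeated this spread within the supplemented group. It was at 42.7, 56.5 and 57.8 CPM in 100Q, against 57.5, 46.9 and 47.3 CPM in 0Q, and its log2 fold change was 0.06 ± 0.14 (SE). The groups overlapped, with a depleted library, 0Q replicate 1, at nearly the level of the highest supplemented one. Without 100Q replicate 3, the deepest library, the log2 fold change was -0.06 for TSEN15 and -0.03 for TSEN54.

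TSEN34, the catalytic subunit for the 3′ splice site (ENSG00000170892; chromosome 19, 54189938 to 54194536), had 52.9, 51.0 and 58.0 CPM in 100Q, against 59.5, 60.6 and 54.3 CPM in 0Q. Its values were closer together than those of the scaffold subunits, and 1 library of each group, replicate 3, crossed to the side of the other group. The log2 fold change was -0.10 (95% interval -0.33 to 0.14), and -0.06 to -0.16 when each library was left out. It did not pass (Benjamini-Hochberg adjusted p = 0.991, edgeR quasi-likelihood).

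The subunits were compared with each other per kilobase of their MANE Select transcript, the representative transcript of GENCODE and RefSeq. Transcripts of TSEN15, TSEN54 and TSEN34 were at similar levels, with means over all 6 libraries of 27.4, 26.6 and 25.9 CPM per kilobase and ranges that overlapped one another. The ratio of TSEN54 to TSEN15 was 0.972 ± 0.0733 in 100Q and 0.975 ± 0.164 in 0Q (SD, n = 3 each). The ratio overlapped between the groups. With the length of all annotated exons in place of the MANE Select transcript, the 3 subunits were no longer alike, at 5.12 CPM per kilobase for TSEN15, 11.4 for TSEN54 and 15.8 for TSEN34, so their similarity depends on the transcript taken.

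CLP1 phosphorylates RNA 5′ ends, binds the TSEN complex and is also part of the factor that cleaves messenger RNA precursors for polyadenylation. Of the 7 genes other than ANG it had the lowest log2 fold change and the widest error. CLP1 (ENSG00000172409; chromosome 11, 57648188 to 57661865) was at 18.3, 12.8 and 18.5 CPM in 100Q, against 21.8, 20.9 and 18.0 CPM in 0Q. The groups overlapped through 0Q replicate 3, and 100Q replicate 2, the shallowest library, was the lowest with 51 counts. The means were 16.5 ± 3.24 CPM in 100Q, against 20.2 ± 1.99 CPM in 0Q (SD, n = 3 each), and the log2 fold change was -0.27 ± 0.19 (SE; adjusted p = 0.987, edgeR quasi-likelihood with Benjamini-Hochberg). Leaving out each library gave -0.13 (100Q replicate 2) to -0.37 (100Q replicate 3). PCF11, the partner of CLP1 in the cleavage factor, had a log2 fold change of -0.02 ± 0.11 (SE). YPEL4 shares 11.9% of the exon bases of CLP1 on the opposite strand but had 16 counts in all 6 libraries together.

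RTCB is the catalytic subunit of the ligase that joins tRNA exons, and it also joins the XBP1 transcript after its cut by IRE1 in the unfolded protein response. Per kilobase of transcript it was the most abundant of the 8 genes. RTCB (ENSG00000100220; chromosome 22, 32387582 to 32412248, minus strand) was at 126, 134 and 124 CPM in 100Q, against 126, 143 and 122 CPM in 0Q. The supplemented libraries all lay inside the depleted range, and replicate 2 was the highest in each group. Its log2 fold change was -0.03 (95% interval -0.22 to 0.16). Of the 6 genes listed as partners of the ligase (subunits, activator and protector), 0 passed with edgeR and 0 had an unadjusted p under 0.05; 5 had negative values and 1 a positive one. The partner farthest from 0 was PYROXD1, an oxidoreductase that protects RTCB from oxidation, at -0.35 ± 0.26 (SE), and it was -0.03 without 0Q replicate 3 and -0.52 when 100Q replicate 2 was left out. PYROXD1 shares 27.4% of its exon bases with RECQL on the opposite strand, which had a log2 fold change of -0.29 ± 0.13 (SE). The strand setting of the counting is not given in the sources used here. The estimated counts of PYROXD1 and RECQL were fractional in every library, so those of PYROXD1 are uncertain. A different division of reads and different expression cannot be told apart. XBP1 was at 133 ± 5.51 CPM in 100Q, against 119.6 ± 12.7 CPM in 0Q (SD, n = 3 each), and its log2 fold change of 0.15 ± 0.09 (SE) did not pass. Leaving out each library in turn gave 0.08 (0Q replicate 1) to 0.24 (0Q replicate 2) for XBP1.

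ELAC2, the long form of RNase Z, removes the 3′ trailer of nuclear and mitochondrial tRNA precursors. Its transcript (ENSG00000006744; chromosome 17, 12991612 to 13018065, minus strand) was at 113, 135 and 124 CPM in 100Q, against 127, 119 and 119.9 CPM in 0Q. The depleted libraries lay inside the supplemented range, whose lowest and highest values were in replicates 1 and 2. A log2 fold change of 0.02 (95% interval -0.17 to 0.21) was the value nearest to 0 of the 8 genes. ELAC1, the short form, which repairs tRNAs whose 3′ end was cut, had few counts, 11 to 36 per library, and a log2 fold change of 0.95 ± 0.55 (SE), which was 0.42 to 1.21 when each library was left out (lowest without 100Q replicate 2) and did not pass (Benjamini-Hochberg adjusted p from the edgeR quasi-likelihood test = 0.987). Of the 4 genes listed for the 3′ end, with the CCA-adding enzyme TRNT1, the La protein SSB and the tRNA exporter XPOT beside ELAC1, 0 passed with edgeR and 0 had an unadjusted p under 0.05.

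ANG was the 1 gene of the 8 whose groups did not overlap, where 10.6% of all tested genes did not overlap (5.39% higher in 100Q and 5.2% lower). Per kilobase of transcript it was also the least abundant. ANG (ENSG00000214274; chromosome 14, 20684177 to 20698971) had 27.74, 19.66 and 58.70 estimated counts in 100Q, against 29.17, 26.20 and 7.68 in 0Q, in replicate order. Rounded to integers and scaled to depth, these were 5.39, 5.02 and 5.06 CPM in 100Q, against 4.05, 3.27 and 1.06 CPM in 0Q. The supplemented libraries were close together, whereas the depleted ones were spread out, with 0Q replicate 3 far below the others. The log2 fold change of 0.88 (95% interval -0.19 to 1.96) did not pass (Benjamini-Hochberg adjusted p from the edgeR quasi-likelihood test = 0.987). It was 0.49 without 0Q replicate 3 and 1.24 when 0Q replicate 1 was left out.

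The low value in 0Q replicate 3 stood beside a high value of RNASE4, a ribonuclease of the same family that shares start windows with ANG. RNASE4 was at 10.2, 8.04 and 6.95 CPM in 100Q, against 5.03, 4.28 and 10.3 CPM in 0Q, so the library lowest for ANG was the highest for RNASE4. The genes share 292 exon bases on the same strand, 20.3% of those of ANG. A further annotated gene, ENSG00000259171, which was looked up after these values were seen, shares exons with both. It had 0 counts in all libraries of 100Q and 12.02, 16.39 and 5.17 in 0Q. Unlike those of the other 7 genes, the counts of ANG were not whole numbers in any library, but the sum over the 3 genes was whole in 6 of 6 libraries, within 0.015. That sum was 81, 52 and 140 in 100Q and 77, 77 and 91.01 in 0Q.

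The shares of the 3 genes in this sum differed between libraries. The deposited values do not separate reads that fit several of the genes from reads that fit 1, so a different division of reads and different expression cannot be told apart. ANG took 34.2%, 37.8% and 41.9% of the sum in 100Q and 37.9%, 34.0% and 8.44% in 0Q. In 5 of the libraries its share was thus 34.0% to 41.9%, and 0Q replicate 3 was the exception. Counted as 1 gene, a choice made after seeing the data, the locus was at 15.6, 13.1 and 12.01 CPM in 100Q, against 10.7, 9.69 and 12.02 CPM in 0Q. The groups then overlapped, by a narrow margin, through 100Q replicate 3 (12.013 CPM) and 0Q replicate 3 (12.019 CPM). The log2 fold change of the sum was 0.32 ± 0.22 (SE; 95% interval -0.15 to 0.79; adjusted p = 0.987, edgeR quasi-likelihood with Benjamini-Hochberg), against 0.88 ± 0.51 for ANG alone.

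**Figure D2:**
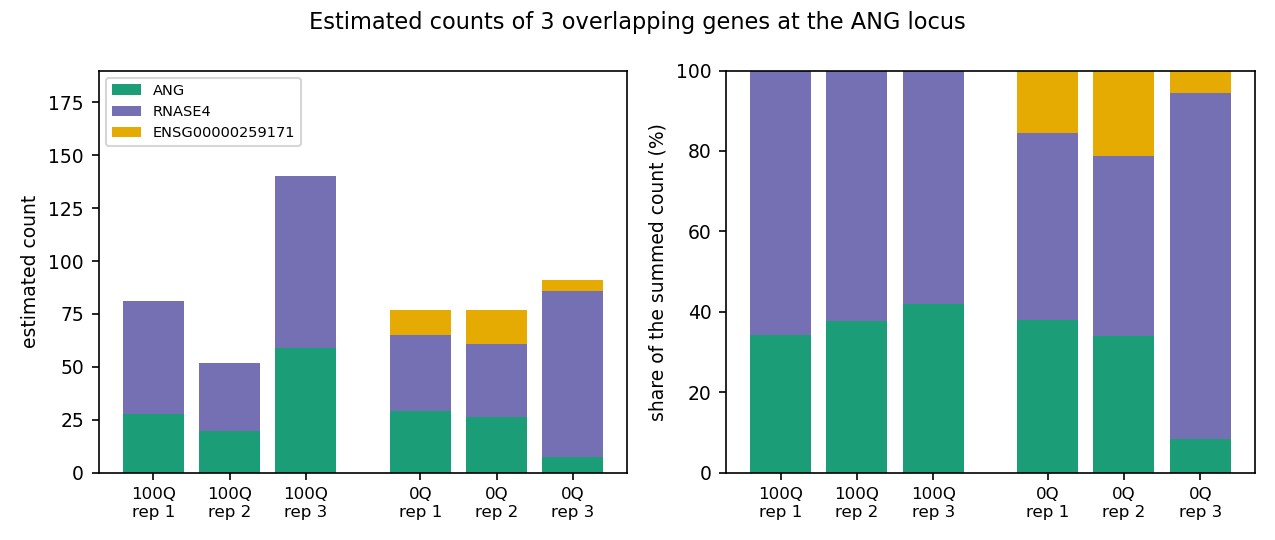
Estimated counts (left) and shares in percent (right) of ANG, RNASE4 and the overlapping gene ENSG00000259171 in each library, 100Q left and 0Q right. ANG takes 34.0% to 41.9% of the summed count in 5 libraries and 8.44% in 0Q replicate 3, and ENSG00000259171 is at 0 in the 3 libraries of 100Q.

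RNH1, the leucine-rich repeat protein that binds angiogenin and other ribonucleases of the RNase A family with very high affinity, was more abundant per kilobase of transcript than its target. RNH1 (ENSG00000023191; chromosome 11, 494512 to 507300, minus strand) was at 92.2, 105 and 95.2 CPM in 100Q, against 96.0, 89.2 and 87.4 CPM in 0Q. The groups overlapped through 0Q replicate 1, and 100Q replicate 2 was the highest library. The means were 97.6 ± 6.94 CPM in 100Q, against 90.9 ± 4.54 CPM in 0Q (SD, n = 3 each), with a log2 fold change of 0.10 (95% interval -0.10 to 0.30), which was 0.05 without 100Q replicate 2. Per kilobase of transcript, RNH1 exceeded ANG 6.56-fold, 8.05-fold and 7.21-fold in 100Q and 9.09-fold, 10.4-fold and 31.7-fold in 0Q. By the length of all annotated exons the excess was smaller, at 3.34-fold, 4.10-fold and 3.67-fold in 100Q and 4.63-fold, 5.32-fold and 16.1-fold in 0Q. The ratio was lower in every supplemented library than in every depleted one, and the highest value comes from 0Q replicate 3, in which ANG had 7.68 counts. The choice of length scales all libraries alike and cannot change this order. ANG alone already had groups apart, where 10.6% of all tested genes did. How many other ratios would separate was not computed. No test was run on the ratio, whose denominator is the level of ANG, computed from its estimated count rounded to an integer.

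Of the other ribonucleases listed, RNASE1, RNASE6 and SLFN11 were at 0 counts in every library and SLFN13 had 1 count in all, which allows up to 0.753 CPM per gene at 0 counts in the shallowest library and 0.257 CPM in the deepest. RNASE4, RNASET2 and DICER1 were tested; 0 of the 3 passed with edgeR and 0 had an unadjusted p under 0.05. The value of RNASE4, the farthest from 0 of these, was 0.35 ± 0.37 (SE); it was 0.84 without 0Q replicate 3 and 0.12 without 0Q replicate 2, the ends of its range when each library was left out. DESeq2 and limma-voom called none of the 3.

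Ordered by level per kilobase over all 6 libraries, RTCB came first (60.2 to 71.0 CPM per kilobase), then RNH1 (44.8 to 54.0) and ELAC2 (30.0 to 35.7), and these 3 ranges did not overlap. TSEN15 (24.1 to 31.5), TSEN54 (22.1 to 29.9) and TSEN34 (23.6 to 28.1) followed and overlapped among themselves, and TSEN15 also overlapped ELAC2. CLP1 (7.01 to 11.9) and ANG (1.41 to 7.21) were lowest and met at the highest library of ANG and the lowest of CLP1. With the length of all annotated exons, RTCB stayed first and ANG last, RNH1 came behind ELAC2 and TSEN34, and TSEN15 came below CLP1.

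**Figure D3:**
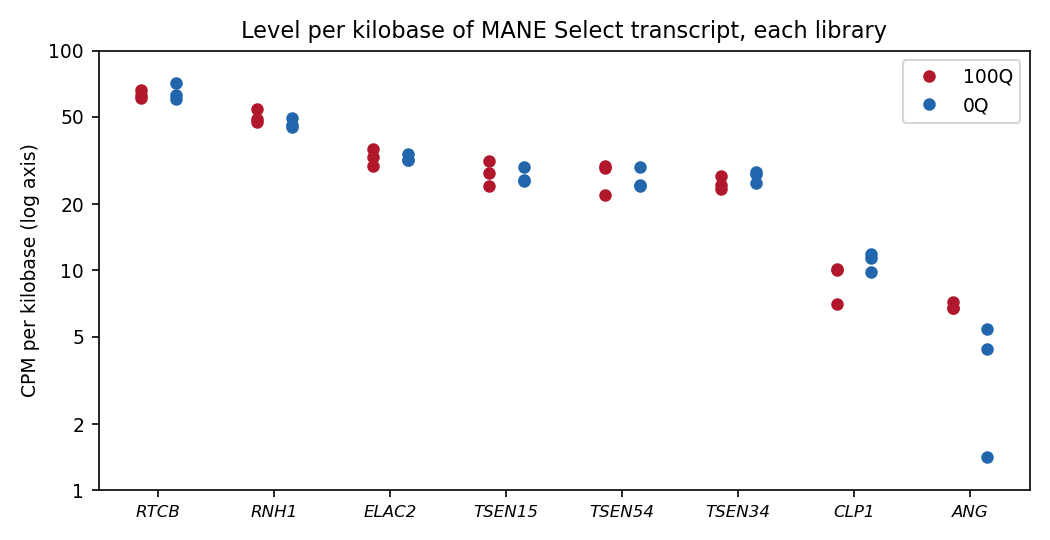
Level of the 8 genes in CPM per kilobase of MANE Select transcript (log axis), with each library of 100Q (red, left) and 0Q (blue, right) as a point. RTCB lies highest at 60.2 to 71.0, TSEN15, TSEN54 and TSEN34 lie together between 22.1 and 31.5, and ANG is lowest at 1.41 to 7.21.

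The genes also differed in how they varied over the libraries. Across the 6 libraries, TSEN54 and ELAC2 had the highest Pearson correlation of log2 CPM among pairs of the 8 genes (0.86), and CLP1 and RNH1 had the lowest (-0.68). These values describe 6 libraries that share the 2 groups and differ in depth. Among 10577 genes with at least 10 CPM (10578 for ANG, itself below that level), the one most like RNH1 was ITGA8 (0.997) and the one most like TSEN34 was EIF3H (0.998). For TSEN15 it was WDR47 (0.990), for TSEN54 MAZ (0.996), for CLP1 TRAF3 (0.994), for RTCB ATRN (0.994), for ELAC2 BBLN (0.990) and for ANG RFLNB (0.991). Between 8 and 45 genes exceeded a correlation of 0.95 with each of the 8 genes, so with 6 libraries many genes have patterns this close.

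Pathway genes outside the 8 were taken from lists of 39 genes, 35 of them tested. NEAT1, a noncoding RNA whose long form is cut by RNase P, passed with edgeR (1 of 35, higher). It alone passed with DESeq2 and with limma-voom (1 of 35 each). Of the 35, 5 had an unadjusted p under 0.05, 2 of them higher and 3 lower, against 2.49% higher and 2.23% lower of all genes. The groups were apart for 8 of the 35. NEAT1, RPP30, TRNT1, RNASET2 and, by a narrow margin, ELAC1 had 100Q above, against 5.39% of all genes. RPPH1, RPP38 and RPP25L had 100Q below, against 5.2% of all genes. TRNT1 had fractional estimated counts in every library and shares 19.8% of its exon bases with CRBN on the opposite strand. For TRNT1, a different division of reads and different expression cannot be told apart. The median log2 fold change of the 35 was 0.0010, against -0.0027 over all tested genes. The 3 with lower values all belong to nuclear RNase P, the ribonucleoprotein that removes the 5′ leader of tRNA precursors. Its RNA subunit RPPH1 was at 11.2, 6.53 and 7.12 CPM in 100Q, against 14.4, 14.6 and 17.7 CPM in 0Q. These levels rest on 57.57, 26.33 and 82.79 estimated counts in 100Q and 103.11, 115.55 and 133.69 in 0Q. The libraries are labelled mRNA-seq, and how well they capture this noncoding RNA was not tested. All supplemented libraries lay below the depleted ones, yet the log2 fold change of -0.92 ± 0.25 (SE) did not pass (Benjamini-Hochberg adjusted p from the edgeR quasi-likelihood test = 0.815). The whole of RPPH1 (100% of its exon bases) lies within the noncoding gene ENSG00000259001 on the same strand, and the estimated counts of both were fractional. Summed as 1 gene, chosen after seeing the data, they gave 25.8, 27.4 and 18.7 CPM in 100Q, against 34.6, 31.3 and 46.0 CPM in 0Q, which were also apart. The log2 fold change of the sum was -0.67 ± 0.18 (SE; adjusted p = 0.815, edgeR quasi-likelihood, Benjamini-Hochberg).

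The protein subunits RPP38 and RPP25L were the other lower ones by unadjusted p. RPP38 was at 17.1 ± 1.03 CPM in 100Q, against 22.9 ± 0.858 CPM in 0Q (SD, n = 3 each; log2 fold change -0.42 ± 0.16, SE). It shares 24.4% of its exon bases with NMT2 on the opposite strand, which had a log2 fold change of 0.14 ± 0.12 (SE). The estimated counts of RPP38 and NMT2 were fractional in every library. A different division of reads between them and different expression of RPP38 cannot be told apart. RPP25L, a paralog of RPP25, was at 27.6 ± 4.09 CPM in 100Q, against 35.9 ± 0.165 CPM in 0Q (-0.37 ± 0.14). Neither passed (Benjamini-Hochberg adjusted p from the edgeR quasi-likelihood test = 0.987 for both). The 12 genes of nuclear RNase P were divided, with 6 positive and 6 negative values and a median of -0.02; 0 passed with edgeR, DESeq2 or limma-voom. Groups were apart for 4 of the 12, RPPH1, RPP38 and RPP25L below and RPP30 above, against 10.6% of all genes. Of the 3 genes of mitochondrial RNase P, which is made of protein alone, PRORP was farthest from 0 at 0.22 ± 0.21 (SE). Leaving out 100Q replicate 1 gave 0.46 for PRORP and leaving out 100Q replicate 3 gave 0.02. It shares 40.9% of its exon bases with ENSG00000258790 on the same strand, which had a log2 fold change of -0.73 ± 0.30 (SE). The estimated counts of both were fractional, so a different division of reads and different expression cannot be told apart. Among the 3 enzymes that act on phosphate ends, the phosphotransferase TRPT1 had 0.11 ± 0.25 and the others were nearer to 0.

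The long noncoding RNAs MALAT1 and NEAT1 (its long form) have 3′ ends made by RNase P, and that of MALAT1 also releases a tRNA-like RNA trimmed by RNase Z. NEAT1 was counted as 1 gene, so the counts do not separate its long form. NEAT1 rose in 100Q, with 229, 237 and 219 CPM against 156, 153 and 165 CPM in 0Q (log2 fold change 0.53 ± 0.08, SE; adjusted p = 0.0413, edgeR quasi-likelihood with Benjamini-Hochberg). The call was lost when any library other than 100Q replicate 3 was left out, with adjusted p of 0.0924 at the lowest and 0.350 at the highest (Benjamini-Hochberg, edgeR quasi-likelihood), and with the replicate number as a block (adjusted p = 0.0524, edgeR). Its log2 fold change hardly moved, at 0.50 to 0.56 over the fits without 1 library and 0.53 with the block. MALAT1 was at 724 ± 86.0 CPM in 100Q, against 584 ± 85.2 CPM in 0Q (SD, n = 3 each), and its log2 fold change of 0.31 ± 0.10 (SE) did not pass (Benjamini-Hochberg adjusted p from the edgeR quasi-likelihood test = 0.987), with overlapping groups.

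**Figure D4:**
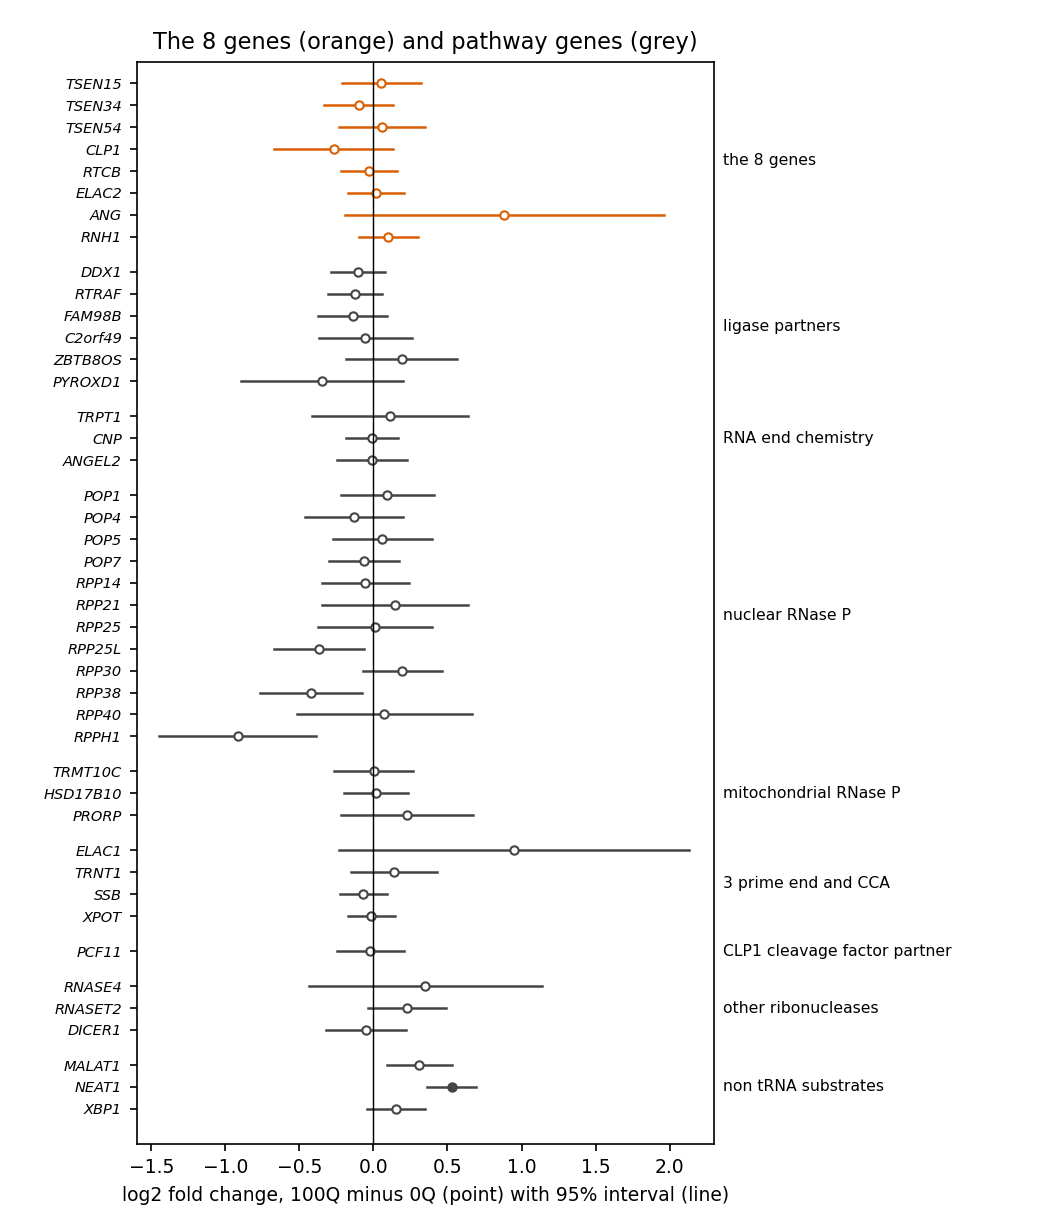
Log2 fold change (100Q minus 0Q) with 95% interval for the 8 genes (orange) and 35 tested pathway genes (grey), grouped by role; the filled point, NEAT1, passed at an adjusted p under 0.05. All 8 orange intervals include 0, and that of ANG is the widest of them, from -0.19 to 1.96.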

How the data were processed

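Messenger RNA of 6 HEK293T libraries was analysed, with groups and replicate numbers from the sample titles. The authors deposited unnormalized estimated counts per Ensembl gene, made with FastQC, STAR and RSEM per the submitters' processing notes, on hg38 per the labels. The library method named in the labels is MSR-seq. The sources used here do not give the annotation, tool versions, strand setting or molecular identifiers. For testing and for levels in CPM, the estimates were rounded to integers. Names, coordinates (1-based) and overlaps came from GENCODE release 44, in which 62541 of 63086 identifiers matched; the 545 others held 0.129% of counts.

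The comparison was made with edgeR 4.0.16 under R 4.3.3 (quasi-likelihood test, TMM scaling, default filter with minimum count 10, no covariate), with Benjamini-Hochberg adjustment over all 14905 tested genes. Alternatives were RLE scaling, library size only, no filter, a mean count of at least 50, the replicate number as a block, DESeq2 1.42.0, limma-voom (limma 3.58.1) and leaving out each library. Summed loci and exon lengths were added after seeing the data. Floors are 3 counts and cover counting error only. Libraries of 1 group were not duplicates of each other (chi-square over its degrees of freedom, 5.36 to 14.2). Tested on simulated data of 14905 genes for this comparison, the test recovered 54% of 1.5-fold, 88% of 2-fold and 100% of 3-fold and 4-fold changes. It made 13 wrong calls among 184. The 200 changed genes all had at least 5 mean CPM, which ANG and ELAC1 did not reach over the 6 libraries. Adjusted p depends on how many genes change, and 2 genes were called in the real data. These shares therefore cannot be taken as the recovery for the 8 genes.

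The members and pathway lists were chosen with earlier results of these data known. The rule named all 8 members, a few fixed pathway genes, those with an unadjusted p under 0.05 or a call by any tool, and the gene farthest from 0 in each list; for likeness it took the gene of at least 10 CPM with the highest correlation. Overlapping genes were looked up after the values were seen. Some items are not reported here, and counts over lists leave them out.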

Additional observations from a re-analysis of the deposited data

How the results depend on the processing

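No alternative called any of the 8 genes: over their 104 values under the alternatives the lowest adjusted p was 0.815, and 99 kept the sign. The 5 changes of sign came from leaving out a library. Leaving out each library gave log2 fold changes of -0.061 to 0.14 for TSEN15, -0.034 to 0.18 for TSEN54, -0.079 to 0.043 for RTCB and -0.042 to 0.075 for ELAC2 (-0.00035 without 0Q replicate 2), and, among pathway genes, -0.094 to 0.053 for PCF11 and -0.092 to 0.37 for TRPT1. The median of the 8 genes ran from -0.02 to 0.10 over these fits. A mean count of at least 50 left out ANG and ELAC1. The count of genes called over the whole table was 2 with edgeR, 71 with no filter on low counts, 1 with a mean count of at least 50, 14 with DESeq2, 1 with limma-voom and 0 to 6 when each library was left out (6 without 100Q replicate 3). With the replicate number as a block 3 genes were called, NEAT1 had an adjusted p of 0.0524 (edgeR), and ANG a log2 fold change of 1.04. Same-numbered libraries did not deviate together in all pairs (correlation of deviations -0.0207, 0.00466 and 0.210). Between libraries of different numbers it was -0.168 to 0.158. With 3 libraries per group, these values cannot decide whether the numbers pair the libraries. The causes were not tested. ANG and ELAC1 had the lowest counts of the listed genes that were tested, 7.68 to 58.70 and 11 to 36 per library.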
